A study of Mus musculus with 4 samples.

Results

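The interferon-stimulated genes described here are 39 genes that interferon induces in most mouse cells, out of 30139 gene names on the array. They were found by gene name among the non-control probes of 4 Agilent 2-colour arrays, and 53 probes carried their names. Each array of the 1 slide was hybridised with whole-liver RNA labelled AAV_Cre in 1 dye and whole-liver RNA labelled AAV_Null in the other, so that 8 RNAs were measured once each. All mice of both groups were female, of strain C57B/6, 8 to 10 weeks old, and homozygous for a floxed Trib1 allele. They had been injected with an adeno-associated virus (AAV) 1 week earlier, fed chow, and fasted for 4 hours before the liver was taken. AAV_Cre virus delivers the Cre recombinase, which cuts out floxed DNA, and the study calls these mice liver-specific Trib1 knockouts, while the AAV_Null mice, which carry the same floxed allele, are called wild type. Every RNA thus came from an AAV-injected mouse, and no level without AAV was measured here. The labels do not say which promoter drives Cre, whether an RNA was 1 animal or a pool, or which exon of Trib1 is floxed, so the p-values below measure only the spread between these 8 RNAs.

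Type I interferons are secreted by many cells that sense a virus or other foreign nucleic acid, and the type II interferon, interferon gamma, by T and natural killer cells. They act through receptors that activate the JAK kinases and STAT transcription factors. STAT2 and IRF9 are parts of the complex that binds the interferon-stimulated response element in promoters after type I interferon, while interferon gamma acts mostly through another element, the gamma-activated site. The induced genes include antiviral effectors, sensors of viral RNA and DNA, interferon-inducible GTPases, chemokines and parts of antigen processing. In liver, hepatocytes, endothelial cells and Kupffer cells, the resident macrophages, can all express them, and an AAV capsid or genome can be seen by the sensors that lie upstream.

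Promoter sequences are shown first, as a description. The members were listed as genes that interferon induces, so a large share with its response element can follow from that choice. Whether these motifs bear on the levels measured here was not tested. RefSeq promoters of the build GRCm38.p6, from 250 bases before to 50 after the start site, were on hand for 30 of the 39 genes, and not for Mx1, Mx2, Oas2, Rtp4, Parp14, Dhx58, Zbp1, Usp18 and Iigp1. The core of the response element, read as GAAA, any 2 bases and GAAA on either strand, was in 16 of the 30 (53.3%), against 943 of 27025 promoters of the same length (3.49%). A longer form, the core with CT after it, was in 10 of the 30 (33.3%), against 0.27% of all, and every match to it is also a match to the core. The gamma-activated site, TTCNNNGAA on either strand, was in 7 of the 30 (23.3%), against 8.47% of all. The 100 bases below, read 5′ to 3′ on the strand of the gene, hold the matches in 6 promoters of genes whose values are given in full, with the matched letters in capitals. Ifit1 (chr19:34640750-34640849, plus strand) and Ifit3 (chr19:34583345-34583444, plus strand) each hold the core motif at 2 places, and Isg15 (chr4:156200836-156200935, minus strand) at 3 places that overlap. Igtp (chr11:58199456-58199555, plus strand) holds a gamma-activated site beside the core motif, Cxcl10 (chr5:92349040-92349139, minus strand) holds the core motif, and Irf1 (chr11:53769879-53769978, plus strand) holds the gamma-activated site and no core motif. A match is a description of letters, not evidence of a bound factor.
Ifit1: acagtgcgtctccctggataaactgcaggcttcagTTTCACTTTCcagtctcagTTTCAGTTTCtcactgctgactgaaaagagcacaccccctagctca
Ifit3: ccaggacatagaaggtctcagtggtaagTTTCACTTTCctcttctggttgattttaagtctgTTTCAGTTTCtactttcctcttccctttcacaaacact
Isg15: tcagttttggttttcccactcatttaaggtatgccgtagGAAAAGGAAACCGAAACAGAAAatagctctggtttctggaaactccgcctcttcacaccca
Igtp: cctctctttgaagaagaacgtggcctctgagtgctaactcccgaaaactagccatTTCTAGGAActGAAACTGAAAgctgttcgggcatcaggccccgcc
Cxcl10: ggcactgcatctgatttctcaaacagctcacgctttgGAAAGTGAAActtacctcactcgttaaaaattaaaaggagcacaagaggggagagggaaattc
Irf1: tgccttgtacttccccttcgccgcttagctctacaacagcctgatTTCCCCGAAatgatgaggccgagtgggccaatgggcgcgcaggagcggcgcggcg

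Each array held 43020 non-control spots, of which 51.0% to 58.7% were well above background in a channel, and none was saturated. The dyes were swapped between the array pairs, with AAV_Cre RNA red (Cy5) on arrays 1 and 2 and green (Cy3) on the other pair. Trib1, the targeted gene, was not lower in the RNA labelled AAV_Cre: the log2 ratio of its brightest probe was 0.94 ± 0.08 (SE, n = 4, limma adjusted p = 0.0226) and was higher on 4 of 4 arrays. Of its other 2 probes, 1 had ratios of 0.97 to 1.52 and 1 of -0.098 to -0.0017, both well above background in all 8 channels. Which part of Trib1 the deletion removes is not given in the labels, so whether these probes can check them cannot be told, and the groups are named by their labels throughout. Ratios are log2 values of AAV_Cre over AAV_Null after background correction and loess, and a negative ratio means less signal in AAV_Cre RNA. A gene was tested where 3 or more of the 4 channels of either group were well above background, and its brightest probe stood for it.

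None of the 35 members tested differed between AAV_Cre and AAV_Null by limma at an adjusted p under 0.05, against 451 of 16081 genes in all (2.8%). At an unadjusted p under 0.05 there was 1 member, Bst2, against 22.9% of all genes. Of the members' fitted ratios 29 were below 0 and 6 above, with a median of -0.17, against 50.7% of all genes below 0 and a median of -0.0026. Bst2, the membrane protein tetherin that holds budding virus on the cell, had ratios of -0.64, -0.91, 0.25 and -0.24 on arrays 1 to 4, and a fitted ratio of -0.38 ± 0.10 (SE, n = 4, limma adjusted p = 0.130). In a fit of the separate channels its adjusted p was 0.0138, and it was the only one called of 34 members, against 16.6% of all genes in that fit. Ifit2, Oas1g, Oas3 and Tap1 were too dim to test: Oas1g and Oas3 were well above background in none of the 8 channels, Ifit2 in 1 of each group, and Tap1 in 2 AAV_Cre channels and 1 AAV_Null channel. The median SE of a member's fitted ratio was 0.193, against 0.062 for all genes, so a member had to differ more than most genes to pass.

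The members' ratios differed more between arrays than from 0. All 33 members measured on 4 arrays were above 0 on array 3 (53.8% of all genes), and none was above 0 on array 2 (45.6%) or on array 4 (52.9%), while 5 were above 0 on array 1 (46.2%). Array 3 also held the highest ratio of each of the 33, or of 25 after median centring, as it did for 30.9% of all genes. With median centring in place of loess these counts were 29, 3, 0 and 17 of 33 for arrays 3, 2, 4 and 1, and the tested genes as a whole then had medians of -0.088, 0.057, -0.079 and 0.17. The members' median ratio was -0.23 on array 1, -0.39 on array 2, 0.54 on array 3 and -0.48 on array 4, against -0.023, -0.028, 0.026 and 0.018 over all genes. Hence 28 of the 33 were above 0 on array 3 alone, a pattern found in 7.81% of all genes, and 15 of 33 had it after median centring, against 4.99% of genes. By its brightest probe none of these 33 had the same sign on 4 of 4 arrays, whereas 23.6% of all genes did. Trim25 is not among the 33, since its brightest probe was measured on 3 arrays. The second probe of Trim25 was below 0 on 4 of 4 arrays. The lowest ratio of a member lay on array 4 for 18 genes, on array 2 for 13 and on array 1 for 2.

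**Figure D1:**
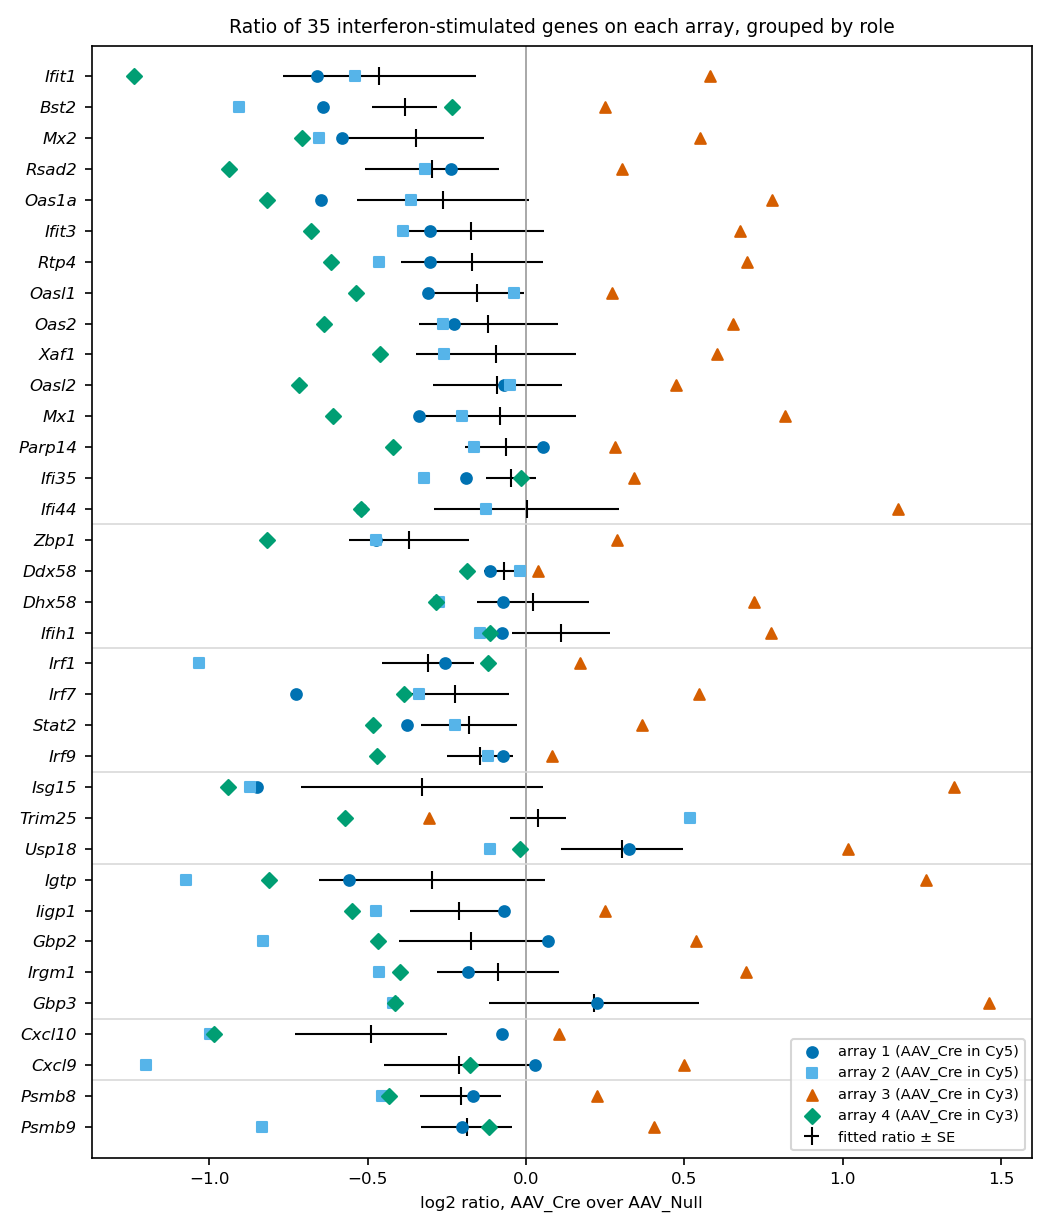
Log2 ratio of AAV_Cre over AAV_Null (x axis) for the 35 members tested (y axis, grouped by role), with a symbol for each array and a tick and bar for the fitted ratio ± SE. The array 3 triangles lie above 0 for all but Trim25, whose brightest probe splits by dye. The other probe of Trim25, not drawn, was also below 0 on array 3, at -0.12. Most other symbols lie below 0, and the fitted ratios run from -0.49 (Cxcl10) to 0.30 (Usp18).

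A ratio does not show which of its 2 RNAs is high, so the level of each RNA was set against the mean of the 4 RNAs in the same dye, 2 of each group. The 4 RNAs in Cy5 were AAV_Cre of arrays 1 and 2 and AAV_Null of arrays 3 and 4, and the other 4 were in Cy3. On this dye-centred log2 scale the members' median was 0.44 in the AAV_Cre RNA of array 3, and -0.20, -0.24 and -0.32 in the AAV_Cre RNAs of arrays 1, 2 and 4. In AAV_Null RNA the medians were -0.11, -0.015, 0.071 and 0.33 on arrays 1 to 4. All-gene medians lay between -0.023 and 0.013 in the 8 RNAs. On this scale the AAV_Cre RNA of array 3 had the highest median of the 8, and the AAV_Null RNA of array 4 came next. Each was the highest of the 4 RNAs in its own dye. Comparisons between dyes, here and below, take the means of 2 different sets of 4 RNAs as equal, which was not tested.

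The highest of the 8 RNAs was the AAV_Cre RNA of array 3 for 21 of 33 members, against 10.8% of all genes. For 6 members it was the AAV_Null RNA of array 2 (10.8% of genes) and for 6 the AAV_Null RNA of array 4 (14.7%). The lowest was the AAV_Cre RNA of array 4 for 18 members (12.2% of genes), that of array 1 for 7 (17.8%), that of array 2 for 3 (13%), the AAV_Null RNA of array 1 for 3 (13.5%) and that of array 2 for 2 (8.46%). Between RNAs of the same group and dye, the AAV_Cre RNA of array 3 was above that of array 4 for 33 of 33 members, against 55.2% of genes. The AAV_Null RNA of array 4 was above that of array 3 for 28 of 33, against 48.5%. AAV_Null of array 2 was above array 1 for 21 of 33 (54.7% of genes), and AAV_Cre of array 1 above array 2 for 16 of 33 (46.3%). Within each group, therefore, the members ran from low to high RNAs. By the members' medians the 2 groups overlapped only through the AAV_Cre RNA of array 3, at 0.44. The medians of the other AAV_Cre RNAs, -0.20, -0.24 and -0.32, lay below those of all AAV_Null RNAs, the lowest of which was -0.11.

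**Figure D2:**
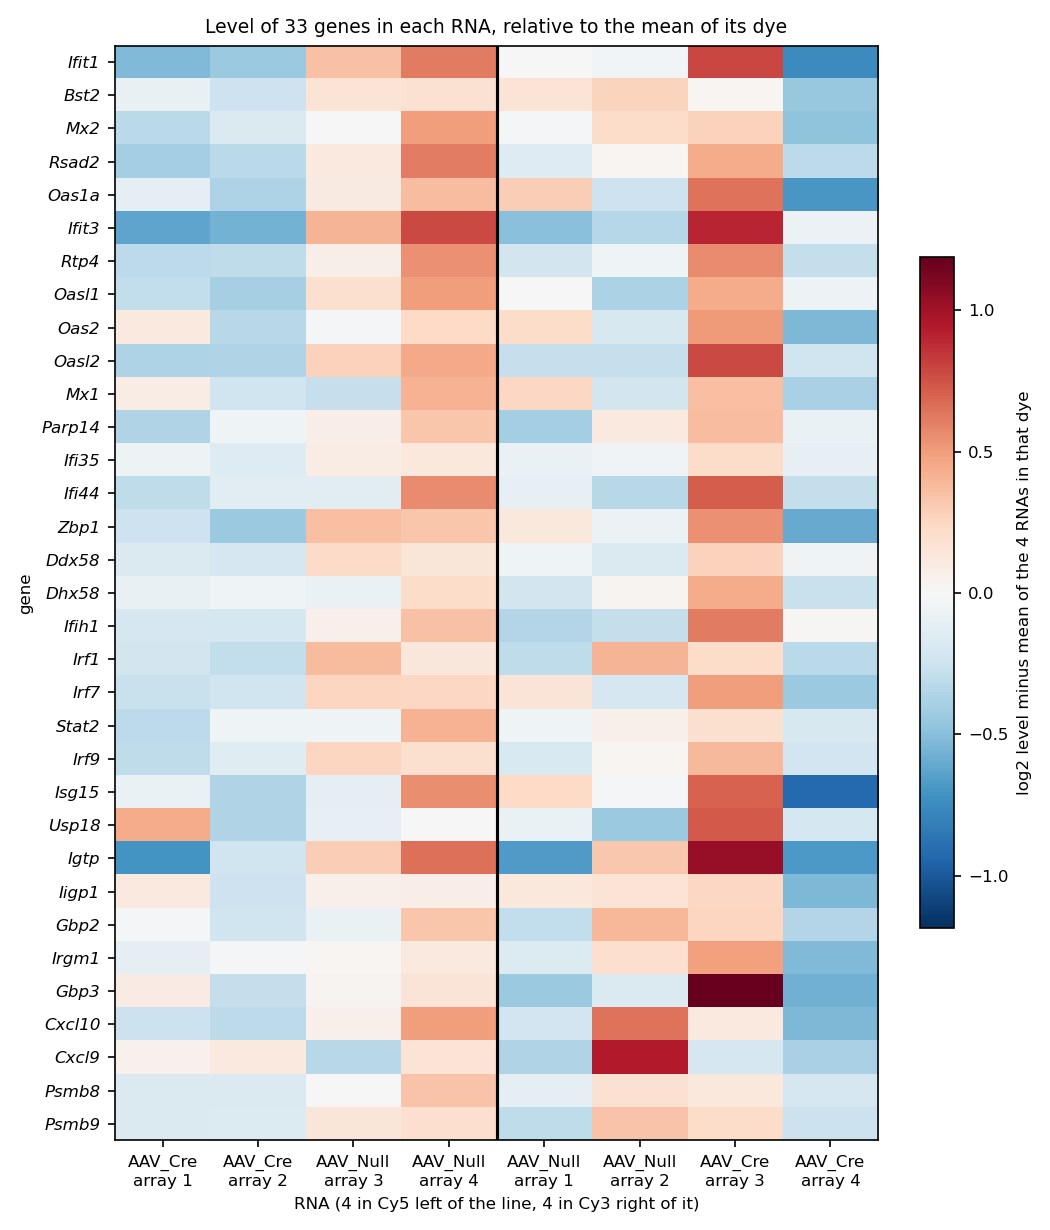
Dye-centred log2 level (colour) of 33 members (rows, grouped by role) in the 8 RNAs (columns, 4 in Cy5 left of the line and 4 in Cy3 right of it). The AAV_Cre RNA of array 3 and the AAV_Null RNA of array 4 are mostly red, at medians of 0.44 and 0.33, and the AAV_Cre RNA of array 4 is mostly blue, at -0.32. Cxcl9 and Cxcl10 are reddest in the AAV_Null RNA of array 2.

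Among the antiviral effectors, Ifit1 and Ifit3 encode proteins that bind foreign RNA and block its translation. Ifit1 (probe at mm9 chr19:34723796-34723855, plus strand) had ratios of -0.66, -0.54, 0.58 and -1.24 on arrays 1 to 4. Its dye-centred levels were -0.52, -0.44, 0.79 and -0.76 in AAV_Cre RNA of arrays 1 to 4, and 0.0014, -0.034, 0.35 and 0.62 in AAV_Null RNA. The AAV_Cre RNA of array 3 was highest, at 2.93-fold the AAV_Cre RNA of array 4 in the same dye, while the other AAV_Cre RNAs lay under every AAV_Null RNA. The fitted ratio was -0.46 ± 0.31 (SE, n = 4, limma adjusted p = 0.426). Ifit3 (mm9 chr19:34663105-34663164, plus strand) had ratios of -0.30, -0.39, 0.68 and -0.68. Its levels were -0.63, -0.56, 0.90 and -0.066 in AAV_Cre RNA and -0.49, -0.34, 0.40 and 0.79 in AAV_Null RNA, so that the RNAs of arrays 3 and 4 stood above those of arrays 1 and 2 in both groups. Its fitted ratio was -0.17 ± 0.23 (limma adjusted p = 0.693).

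The oligoadenylate synthetases make the activator of the RNA-degrading enzyme RNase L when they meet double-stranded RNA. Oas1a (mm9 chr5:121346735-121346794, minus strand) had ratios of -0.65, -0.36, 0.78 and -0.82, with levels of -0.11, -0.36, 0.64 and -0.69 in AAV_Cre RNA and 0.29, -0.24, 0.11 and 0.37 in AAV_Null RNA. The highest and the lowest RNA were both AAV_Cre RNAs in Cy3, those of arrays 3 and 4, and differed by 2.52-fold. Its brightest probe is assigned in the array annotation to 2 transcripts, those of Oas1a and Oas1g, so the signal cannot be divided between these copies. Oasl2 (mm9 chr5:115362168-115362227, plus strand), a synthetase-like protein, had ratios of -0.069, -0.050, 0.47 and -0.72. Levels of Oasl2 were -0.37, -0.35, 0.78 and -0.24 in AAV_Cre RNA and -0.27, -0.27, 0.28 and 0.45 in AAV_Null RNA, so that the RNAs of arrays 3 and 4 again stood above those of arrays 1 and 2 in both groups. Oas2 and Oasl1 had fitted ratios of -0.12 ± 0.22 and -0.15 ± 0.15.

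Ifi44 (mm9 chr3:151394035-151394094, minus strand), an antiviral protein of the cytoplasm, had ratios of -0.52, -0.13, 1.18 and -0.52 and a fitted ratio of 0.0016 ± 0.29 (SE, n = 4, limma adjusted p = 0.997). Its level was 0.71 in the AAV_Cre RNA of array 3 and 0.56 in the AAV_Null RNA of array 4, and lay between -0.33 and -0.10 in the other 6. The effectors Mx1, Mx2, Rsad2, Ifi35, Xaf1, Rtp4 and Parp14 had fitted ratios between -0.35 (Mx2) and -0.047 (Ifi35). Mx proteins are dynamin-like GTPases that trap viral particles, and Rsad2 is viperin, which makes a chain-terminating nucleotide. The array annotation of the Mx1 and Mx2 probes also lists a non-coding transcript for each, and no protein was measured. Of all 15 effectors tested, 14 had fitted ratios below 0, and 13 of the 14 measured on 4 arrays were above 0 on array 3 alone.

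Zbp1, a sensor of Z-form nucleic acid that can trigger cell death, was among the nucleic acid sensors the one that varied most. Its brighter probe (mm9 chr2:173039307-173039366, minus strand) gave ratios of -0.47, -0.47, 0.29 and -0.82, and dye-centred levels of -0.24, -0.44, 0.54 and -0.59 in AAV_Cre RNA and 0.13, -0.072, 0.35 and 0.33 in AAV_Null RNA. Its fitted ratio was -0.37 ± 0.19 (SE, n = 4, limma adjusted p = 0.324). The receptors of viral double-stranded RNA were less far from 0: the fitted ratio was 0.11 ± 0.16 for Ifih1 (MDA5), -0.071 ± 0.062 for Ddx58 (RIG-I) and 0.022 ± 0.18 for Dhx58 (LGP2, which tunes both). Ddx58 had an SD over the 8 RNAs of 0.189, at percentile 58.0 of all genes, while Ifih1 had 0.337, at percentile 91.1. All 4 sensors were above 0 on array 3 alone.

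The transcription factors of the pathway were Irf1, induced most by interferon gamma, Irf7, which drives interferon alpha genes, and Irf9 and Stat2, which bind the response element as parts of a complex. Irf1 (mm9 chr11:53590746-53590805, plus strand) had ratios of -0.26, -1.03, 0.17 and -0.12, with levels of -0.22, -0.29, 0.21 and -0.32 in AAV_Cre RNA and -0.30, 0.41, 0.38 and 0.14 in AAV_Null RNA. Its highest RNAs were thus the AAV_Null RNAs of arrays 2 and 3, unlike those of Ifit1, and its fitted ratio was -0.31 ± 0.15 (SE, n = 4, limma adjusted p = 0.292). Irf7 (mm9 chr7:148450664-148451014, minus strand, a span longer than the 60-base probe) had ratios of -0.73, -0.34, 0.55 and -0.39 and a fitted ratio of -0.23 ± 0.17. Levels of Irf7 were -0.26, -0.24, 0.49 and -0.44 in AAV_Cre RNA and 0.16, -0.20, 0.25 and 0.25 in AAV_Null RNA. It followed Ifit1 and Isg15 in that the AAV_Cre RNA of array 3 was highest and that of array 4 lowest. Irf9 (mm9 chr14:56228806-56228865, plus strand) had ratios of -0.072, -0.12, 0.082 and -0.47, and Stat2 (mm9 chr10:127729834-127729893, plus strand) of -0.38, -0.22, 0.36 and -0.48. Their fitted ratios were -0.15 ± 0.10 and -0.18 ± 0.15, and neither passed the test, at limma adjusted p of 0.457 and 0.523.

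Isg15 is a ubiquitin-like protein that is attached to other proteins, and Usp18 is the protease that removes it and also holds down the type I receptor. Isg15 (mm9 chr4:155573649-155573708, minus strand) had ratios of -0.85, -0.87, 1.35 and -0.94, the 3 negative values within 0.1 of each other. Its levels were -0.081, -0.35, 0.70 and -0.92 in AAV_Cre RNA and 0.24, -0.015, -0.11 and 0.55 in AAV_Null RNA, and the AAV_Cre RNA of array 3 was 3.09-fold that of array 4. The fitted ratio was -0.33 ± 0.38 (SE, n = 4, limma adjusted p = 0.650). Usp18 (mm9 chr6:121220874-121220933, plus strand) had the highest fitted ratio of the members, 0.30 ± 0.19 (limma adjusted p = 0.410), from ratios of 0.33, -0.11, 1.02 and -0.019. Its levels of 0.44 and 0.73 in the AAV_Cre RNAs of arrays 1 and 3 were above the other 6 RNAs, which lay between -0.44 and 0.0089. Trim25, a ubiquitin ligase that acts on the sensor RIG-I, had 2 probes that did not run alike. The brighter, on a cDNA clone and measured on 3 arrays, had ratios of 0.52, -0.31 and -0.57 on arrays 2 to 4, and the RefSeq probe had -0.11, -0.29, -0.12 and -0.24 on arrays 1 to 4. The first therefore changed sign with the dye, and its fitted ratio of 0.038 ± 0.089 holds a dye term estimated from those 3 arrays.

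Interferon-inducible GTPases attack the vacuoles of intracellular microbes, and 2 of them, Igtp and Gbp3, were among the members that varied most. Igtp (Irgm3, mm9 chr11:58020927-58020986, plus strand) had ratios of -0.56, -1.08, 1.26 and -0.81. Its levels were -0.71, -0.23, 1.03 and -0.68 in AAV_Cre RNA and -0.67, 0.32, 0.29 and 0.65 in AAV_Null RNA, a range of 3.35-fold, and both the highest and the lowest RNA were AAV_Cre RNAs. The fitted ratio was -0.30 ± 0.36 (SE, n = 4, limma adjusted p = 0.661). Gbp3 (mm9 chr3:142236032-142236091, plus strand) had ratios of 0.22, -0.42, 1.46 and -0.41, and levels of 0.093, -0.28, 1.19 and -0.57 in AAV_Cre RNA and -0.44, -0.17, 0.036 and 0.15 in AAV_Null RNA. For Gbp3 the AAV_Cre RNA of array 3 stood 3.38-fold above that of array 4, and the other 7 RNAs all lay under 0.16. Gbp2, Iigp1 and Irgm1 had fitted ratios of -0.17 ± 0.23, -0.21 ± 0.16 and -0.087 ± 0.19.

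The chemokines Cxcl9 and Cxcl10, which draw T cells and natural killer cells through the receptor CXCR3, were both highest in the AAV_Null RNA of array 2. Cxcl9 (mm9 chr5:92752191-92752250, minus strand) had ratios of 0.029, -1.20, 0.50 and -0.18, and its level was 0.94 in the AAV_Null RNA of array 2. The other levels of Cxcl9 were 0.050, 0.11, -0.20 and -0.39 in AAV_Cre RNA of arrays 1 to 4, and -0.35, -0.33 and 0.16 in AAV_Null RNA of arrays 1, 3 and 4. Cxcl9 was the only member measured on 4 arrays whose level in the AAV_Cre RNA of array 3 was below the mean of its dye. Cxcl10 (mm9 chr5:92775781-92775840, minus strand) had ratios of -0.076, -1.0, 0.10 and -0.99, with levels of -0.25, -0.31, 0.12 and -0.54 in AAV_Cre RNA and -0.23, 0.64, 0.063 and 0.50 in AAV_Null RNA. Its fitted ratio of -0.49 ± 0.24 (SE, n = 4, limma adjusted p = 0.310) was the lowest of the members, and Cxcl9 had -0.21 ± 0.24 (limma adjusted p = 0.636). The immunoproteasome subunits Psmb8 and Psmb9, which cut peptides for class I presentation, had fitted ratios of -0.21 ± 0.13 and -0.19 ± 0.14. Bst2, Irf1, Gbp2, Cxcl9, Cxcl10 and Psmb9 were the 6 members with their highest level in the AAV_Null RNA of array 2, against 10.8% of all genes.

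The members varied more between RNAs than most genes. The median SD of the dye-centred level over 8 RNAs was 0.337 for the 33 members and 0.171 for all genes, and 32 of the 33 were above the all-gene median. Of the 33, 18 were above 0.324, the 90th percentile, which by its definition 9.99% of all genes exceeded. The largest SDs were those of Igtp (0.671), Ifit3 (0.617), Ifit1 (0.556), Gbp3 (0.544) and Isg15 (0.514), all at or above percentile 97.3 of all genes, and the smallest was that of Ifi35 (0.129), at percentile 28.1. Among members with a promoter in the table, the median SD was 0.39 for the 14 with the core response element and 0.322 for the 10 without it, with ranges of 0.189 to 0.671 and 0.129 to 0.440 that overlap. Across the 33 members, as a description over genes that are not independent, the ratios of arrays 1 and 2 correlated at r = 0.206, against 0.664 over all genes. Those of arrays 3 and 4 correlated at -0.137, against 0.480, and those of arrays 1 and 4 at 0.488, against 0.195. Arrays 1 and 2 share a dye orientation, as do arrays 3 and 4.

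**Figure D3:**
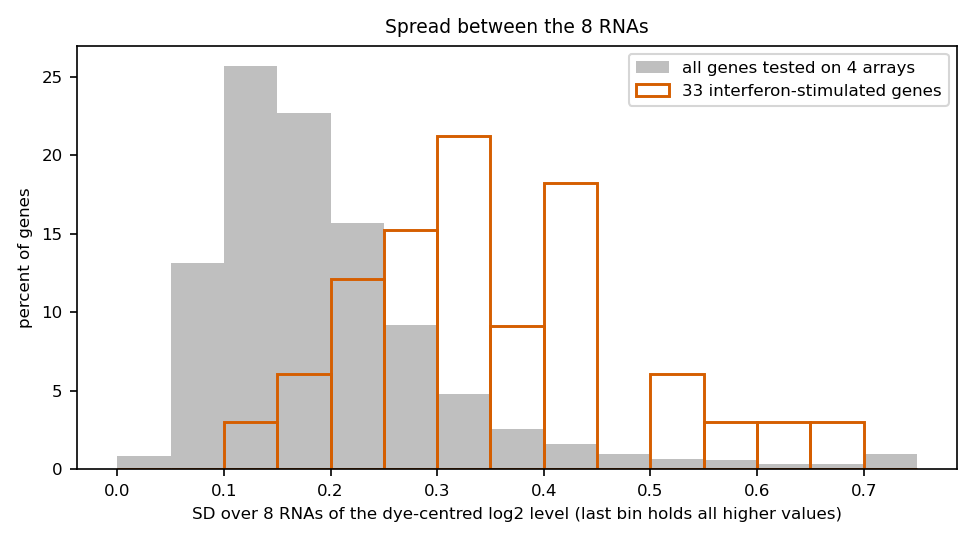
Share of genes (y axis, percent) by the SD of their dye-centred log2 level over the 8 RNAs (x axis), for all genes measured on 4 arrays (grey) and for the 33 members (orange outline). The members lie to the right of all genes, with medians of 0.337 and 0.171.

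The members' median depended on arrays 3 and 4. Without array 3 the members' median ratio was -0.40, and 25 of the 34 members then tested had an unadjusted limma p under 0.05, all 25 lower in AAV_Cre, against 20.6% of all genes. On array 3 all 33 members measured on 4 arrays were above 0, so leaving it out was bound to lower their fitted ratios. With all 4 arrays the median was already below 0, at -0.17. There 29 of 35 members were below 0, and 1 had an unadjusted limma p under 0.05. The members also vary together, so the 25 are not independent. None passed after adjustment, the smallest adjusted p being 0.0582 for Isg15 (log2 ratio -0.90 ± 0.06, SE, n = 3 arrays, limma), and 38 genes in all were called (0.241%). Without array 4 the median was 0.045, 13 members were below 0, and 10 had an unadjusted p under 0.05, 1 of them lower, against 21.5% of genes, with 5 genes called in all (0.0317%). Without array 1 or array 2 the median was -0.16 or -0.12, with 0 genes called by limma in either case, and 3 of 35 or 0 of 34 members at an unadjusted p under 0.05, against 15.3% or 13.6% of all genes. The sign of the members' median thus held without array 1, 2 or 3 and turned without array 4, and it lay farther from 0 without array 3.

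The other genes of the pathway were taken from lists by role, and none of them was called in limma over all genes. Of the 16 interferon genes listed 12 were on the array and 2 were bright enough to test, Ifnk at -0.15 ± 0.07 (limma adjusted p = 0.277) and Ifna11 at -0.022 ± 0.048. Ifnb1, Ifng and Ifnl3 were on the array and did not reach the level needed for a test. Of the receptors, 5 of 6 were tested and 3 had an unadjusted p under 0.05, a level that 22.9% of all genes passed. Ifnar1, a chain of the type I receptor, had ratios of -0.29, -0.16, -0.26 and -0.25 and a fitted ratio of -0.24 ± 0.05 (SE, n = 4, limma adjusted p = 0.0930). Unlike the 33 members measured on 4 arrays, it was below 0 on 4 of 4, as was its partner Ifnar2, at -0.17 ± 0.05 (limma adjusted p = 0.150). Ifngr2, of the type II receptor, was above 0 on 4 of 4, at 0.21 ± 0.06 (limma adjusted p = 0.133).

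Of 4 JAK and STAT genes 1 had an unadjusted p under 0.05, the kinase Jak1 at -0.20 ± 0.06 (limma adjusted p = 0.144), and of 16 genes that sense nucleic acid upstream of interferon 3 had, led by the adaptor Ticam1 at 0.19 ± 0.05 (limma adjusted p = 0.134). Among 9 inhibitors of the pathway none had, and the smallest p was that of the exonuclease Trex1, at -0.17 ± 0.08. Socs3, an inhibitor of JAK kinases that interleukins also induce, had ratios of -0.69, -0.74, 1.05 and -0.89, of the same signs as those of Isg15. Of 56 further interferon-stimulated genes tested, of 63 listed, 44 had fitted ratios below 0, with medians of -0.13, -0.20, 0.24 and -0.34 on arrays 1 to 4, and 25 were above 0 on array 3 alone. At an unadjusted p under 0.05 there were 8 of them, against 22.9% of all genes. Ifi27l2b had the smallest p, at 0.70 ± 0.13 (limma adjusted p = 0.0738), and was above 0 on 4 of 4 arrays. The others of these 8 were all lower in AAV_Cre. Next by p were Apol9b, at -0.67 ± 0.12 (limma adjusted p = 0.0749), and Apol9a, at -0.68 ± 0.13 (limma adjusted p = 0.0817). Both were below 0 on 4 of 4 arrays. Class I presentation genes (12 tested, 2 of them at an unadjusted p under 0.05, led by Psme1 at 0.27 ± 0.05, limma adjusted p = 0.0842) had medians of -0.0017, -0.15, 0.20 and -0.24, and class II genes (7 tested, led by H2-DMa at -0.28 ± 0.14) of -0.011, -0.37, 0.44 and -0.41.

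Most markers of macrophages and neutrophils were above 0 on array 3 alone, like most members, against 7.81% of all genes. Whole liver holds many cell types, and in such RNA fewer cells of a type and less RNA per cell cannot be told apart. Of 16 Kupffer cell and macrophage markers 15 were tested and 13 of the 14 measured on 4 arrays were above 0 on array 3 alone, with medians of -0.32, -0.25, 0.30 and -0.64 on arrays 1 to 4. The median dye-centred level of that list ran from -0.48 to 0.32 in AAV_Cre RNA and from -0.25 to 0.54 in AAV_Null RNA, and Cd163 was its only marker too dim to test. Clec4f, a lectin found on Kupffer cells, had ratios of -0.31, -0.35, 0.49 and -0.64, and Marco, a scavenger receptor with the smallest p of the list, had -1.14, -1.31, 0.38 and -0.31 (fitted ratio -0.59 ± 0.13, SE, n = 4, limma adjusted p = 0.0936). Of 9 neutrophil markers 6 were tested, and 5 were above 0 on array 3 alone, with medians of -0.44, -0.41, 0.75 and -0.60. Their median level ran from -0.31 to 0.40 in AAV_Cre RNA and from -0.19 to 0.66 in AAV_Null RNA, and Cxcr2, Ngp and Ltf were too dim to test. S100a8, an abundant neutrophil and monocyte protein, had ratios of -0.65, -1.11, 1.17 and -1.65. Csf3r, with the smallest p of the neutrophil list, was below 0 on all arrays, at -0.22, -0.083, -0.12 and -0.19. Its fitted ratio was -0.15 ± 0.05 (SE, n = 4, limma adjusted p = 0.192).

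Above 0 on array 3 alone were 3 of 6 markers tested for monocytes, 3 of 5 for B and plasma cells and 3 of 4 for conventional dendritic cells. The pattern was found in 2 of 5 for plasmacytoid dendritic cells and 0 of 7 for T and natural killer cells. Monocyte markers (6 tested of 7) had medians of -0.14, -0.33, 0.35 and -0.54. B and plasma cell markers (5 of 7) had -0.22, -0.27, 0.34 and -0.27, and conventional dendritic cell markers (4 of 7) had -0.18, -0.28, 0.25 and -0.043. The smallest p in these 3 lists were those of Lyz2 (-0.34 ± 0.08, limma adjusted p = 0.111), Cd79a (0.14 ± 0.05) and Clec9a (-0.10 ± 0.07). Markers of T and natural killer cells (7 of 14) had medians of 0.079, -0.023, 0.097 and -0.24, with Cd3d at 0.21 ± 0.08. Those of plasmacytoid dendritic cells (5 of 8), the main makers of type I interferon in blood, had medians of -0.0035, 0.17, -0.071 and -0.24, with Spib at -0.20 ± 0.10. The probes of Siglech and Pacsin1 in that list, and of Cd4 in the T cell list, had mean log2 intensities of 17.45, 15.66 and 15.66, against 17.87 for Alb. Pacsin1 changed sign with the dye, at 0.30, 0.40, -0.26 and -0.32. Whether these bright probes measure those cells was not tested. The lists of endothelial, stellate, bile duct and hepatocyte markers did not have medians above 0 on array 3 alone. Their medians were 0.051, -0.016, -0.25 and -0.32 for endothelial markers (12 of 12, Clec4g at -0.35 ± 0.06, limma adjusted p = 0.0623) and 0.32, 0.51, -0.011 and 0.38 for stellate cell markers (7 of 9). Col3a1 was called there, higher in AAV_Cre at 0.47 ± 0.06 (limma adjusted p = 0.0442). Cholangiocyte markers (4 of 6, Sox9 at 0.22 ± 0.05) had 0.083, 0.16, 0.22 and 0.12, and hepatocyte markers (12 of 12, Alb at -0.39 ± 0.07, limma adjusted p = 0.0749) had 0.21, 0.15, -0.0021 and -0.31. Erythroid markers (3 of 6, Hbb-b2 at -0.33 ± 0.18) had -0.52, 0.29, -0.65 and -0.13. The part of immune cells in the members' differences between RNAs was not tested.

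**Figure D4:**
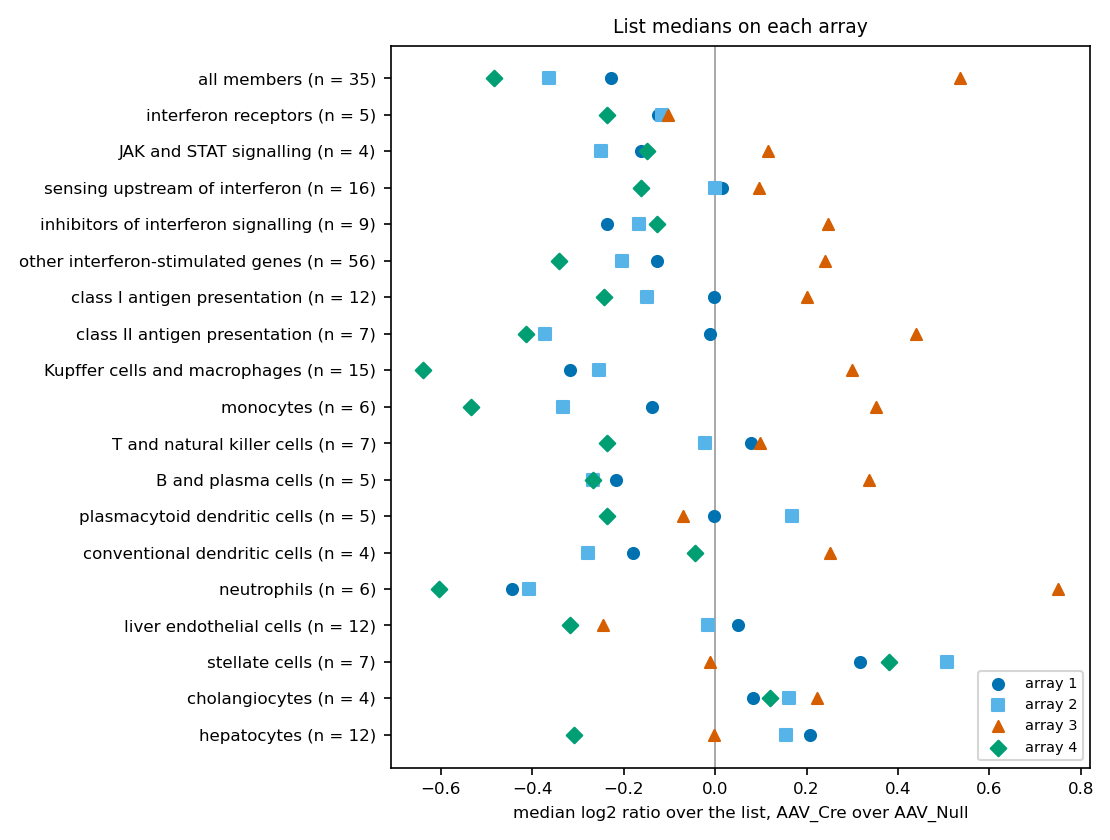
Median log2 ratio of AAV_Cre over AAV_Null (x axis) on each array (symbols) for the 35 members tested and for the pathway and marker lists with 4 or more genes tested (y axis). Neutrophil, Kupffer cell, monocyte and class II lists have array 3 at 0.30 to 0.75 and array 4 at -0.64 to -0.41, as the members do at 0.54 and -0.48, while receptor, endothelial and stellate lists do not.

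For 8 members a second probe was bright enough to test. The second probe of Isg15 had ratios of -0.34, -0.33, 0.46 and -0.28 on arrays 1 to 4, that of Zbp1 -0.18, -0.22, 0.23 and -0.55, that of Oas1a -0.46, -0.052, 0.31 and -0.29, and that of Iigp1 -0.22, -0.59, 0.38 and -0.57. These 4 were above 0 on array 3 alone, as the probes that stand for those genes were. The second probe of Irgm1 was above 0 on arrays 1 and 3, at 0.025 and 0.55. For Cxcl9 and Ddx58, as for Trim25, the probes disagreed on array 3 or array 2. The second probe of Cxcl9 had 0.22, -0.95, -0.13 and -0.35, so that its lowest ratio was again on array 2, and that of Ddx58 had -0.027, 0.18, 0.14 and -0.35. No probe of a member shared more than 27 of its 60 bases in a local alignment with a probe of another member, the closest pair being those of Irf9 and Mx1. Probes were aligned only with other probes, so whether a probe can bind the transcript of a related gene was not tested.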

How the data were processed

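Whole-liver RNA was measured on 4 Agilent 2-colour arrays, read with Agilent Feature Extraction 11.5.1.1 per the submitters' processing notes, which also name limma. The scanner intensity and the log10 ratio of Cy5 over Cy3 were deposited for each spot per the file headers, with probe positions on mm9. The authors also deposited log2 values, whose slopes against the log10 ratio, from -3.40 to 3.34, show them to be AAV_Cre over AAV_Null already. The labels describe 2 labelling procedures without saying which was used. Mean intensities were background-corrected (normexp, offset 50) and normalized by loess with limma 3.58.1 in R 4.3.3, controls left out of the curve. Scanner-marked outlier spots were dropped unless a probe would lose all its values. The fit held treatment and dye orientation, with empirical Bayes and Benjamini-Hochberg adjustment over 16081 genes. For RNA levels the channels were scaled between arrays (Aquantile), and each dye's mean was subtracted. Promoters came from RefSeq (GRCm38.p6), a different build from the probes' mm9. Probe sites were not assigned to exons or UTRs. The fit was tested on simulated data. The members and all lists were chosen with earlier results of these data known. Members named with full values are the 12 with the largest SD over RNAs, both chemokines and the transcription factors; of each list, called genes and otherwise that of smallest p are named. Ifnb1, Ifng, Ifnl3, Cd163, Clec4f, Cxcr2, Ngp, Ltf, S100a8, Socs3, Ifnar2, Ifngr2, Apol9a, Apol9b, Siglech, Pacsin1 and Cd4 were named after their values were seen. One listed pathway gene is not reported here.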

Additional observations from a re-analysis of the deposited data

Results flagged for a closer look

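Of 33 members and their median, each tested over its 4 arrays with Dixon's test, 3 genes had an array 3 ratio far from the other 3 arrays: Mx2 (0.55), Ifih1 (0.78) and Isg15 (1.35). The nominal rate of the test is about 1 in 20, or 1.7 of 34, and these ratios still hold the dye effect. The members vary together, and the share of all genes that this test would flag was not computed. The count of 3 is therefore not read as a result about the members.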

How the results depend on the processing

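With 4 arrays and members' ratios that changed sign between them, the design could show only effects well above the members' spread. No member was called under any alternative but the separate-channel fit, which called 1, Bst2. The members' median ratio stayed below 0, between -0.40 and -0.12, in all alternatives but the one without array 4, where it was 0.045. The count of genes called, 451 as reported, was 248 with no dye effect in the model, 2615 in the separate-channel fit, 746 from Agilent's processed signals, 1300 with no background correction, 712 with median centring, 270 with no filter on dim probes, 1296 with trended and robust empirical Bayes, 1317 from the authors' deposited log2 values and 1360 at an adjusted p under 0.1. Leaving out an array in turn gave 0 to 38. Members above 0 on array 3 alone numbered 28, 15 with median centring, and 27 to 29 in the other alternatives, which were chosen after seeing the data. The longer promoter motif was in 33.3% of members against 53.3% for the core. For single members 555 values kept their side of the threshold and moved by under 1 SD over arrays, and 1 passed the threshold (Bst2). That SD is taken over a member's own 4 ratios and holds the array 3 difference and the dye effect, so it is a loose measure. Isg15, at -0.33 in the main fit and -0.90 without array 3, is counted among the 555. Without the filter the dim Ifit2, Oas1g, Oas3 and Tap1 had ratios from -0.089 to 0.077, none called.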
